A study of Mus musculus with 26 samples.

Results

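The serum amyloid A proteins and the other secreted defense proteins described here are the products of 10 mouse genes, Saa1, Saa2, Saa3, Lcn2, Ltf, Chit1, Chil1, S100a8, S100a9 and Lbp. They were found by symbol among the 37310 gene IDs of the count tables, and each matched a single ID. The choice used values of these data. Saa1 and Chit1 were selected on their measured CPM, because their response to Malat1 antisense oligonucleotides differed between tumors and organoids, so for those 2 genes the values of the oligonucleotide comparisons and of tumors against organoids are given as a description with no test. The other 8 genes were tested in fits across all genes.

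RNA was sequenced from mammary tumors of C57BL/6 mice carrying the MMTV-PyMT transgene, in which a mammary-active viral promoter drives the polyoma virus middle T antigen, and from organoids, cultures of such tumors embedded in Matrigel with FGF2. All groups share this genotype and strain. ASO1 and ASO2 are antisense oligonucleotides, short modified DNA strands, against the long noncoding RNA Malat1, and scASO is their control oligonucleotide. Mice were dosed under the skin with 125 mg/kg per week for several weeks, which gave 3 tumors with ASO1, 4 tumors with ASO2 and 3 tumors with scASO. Organoids were kept for 6 days in 500 nM oligonucleotide that was renewed at day 3, which gave 4 libraries each for ASO1, ASO2 and scASO, and 4 further libraries called Mock, for which the labels name no oligonucleotide. No age of the mice is given, nor is it stated whether tumors or cultures of a group came from different mice, so the p-values measure the spread between these libraries.

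Serum amyloid A proteins are small apolipoproteins that the liver releases in bulk during an acute-phase response, and that epithelia and macrophages also make locally; in mice Saa3 is the form made mainly outside the liver. Lipocalin 2 and lactoferrin keep iron from bacteria, by binding iron-loaded siderophores and free iron. Chitotriosidase cleaves chitin, while its relative, encoded by Chil1, binds chitin without cleaving it. S100a8 and S100a9 form calprotectin, a metal-binding dimer abundant in neutrophils and in stressed squamous epithelium, and Lbp carries bacterial lipopolysaccharide to its receptor complex. Mammary epithelium secretes several of these proteins into milk, and transcription factors of the C/EBP, NF-kB and STAT families are the known drivers of the acute-phase genes among them.

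On GRCm38, Saa3, Saa1 and Saa2 lie at chr7:46711998-46715700, chr7:46740497-46742980 and chr7:46751790-46754313, and Chit1 and Chil1 at chr1:134111242-134151540 and chr1:134182176-134190181. Lcn2 lies at chr2:32384633-32388252, Lbp at chr2:158306493-158332852, Ltf at chr9:111019271-111042767, S100a8 at chr3:90668978-90670035 and S100a9 at chr3:90692632-90695721. All are protein-coding genes in the GENCODE annotation, and none overlaps another gene there, so the missing record of strand in counting bears little on them.

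The 250 bases upstream of the start site are shown for the 3 serum amyloid A genes, which lie together on chromosome 7 and of which Saa1 and Saa2 were each other's closest gene across libraries in both systems, and for Chit1, the gene with the widest range among tumors. Sequences are RefSeq's on GRCm38.p6, written 5′ to 3′ on the strand of the gene. Capitals mark matches on either strand to the C/EBP-type motif TTGCNNAA or to the NF-kB consensus GGRNNNYYCC. R is A or G, Y is C or T, and N is any base. The windows are chr7:46742981-46743230 on the minus strand for Saa1, chr7:46751583-46751832 on the plus strand for Saa2, chr7:46715677-46715926 on the minus strand for Saa3 and chr1:134110992-134111241 on the plus strand for Chit1.
Saa1: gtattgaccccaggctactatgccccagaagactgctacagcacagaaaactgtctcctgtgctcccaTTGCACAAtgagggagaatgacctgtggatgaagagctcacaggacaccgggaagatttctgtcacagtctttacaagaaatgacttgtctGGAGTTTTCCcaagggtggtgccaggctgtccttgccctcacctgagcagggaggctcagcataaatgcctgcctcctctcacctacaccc
Saa2: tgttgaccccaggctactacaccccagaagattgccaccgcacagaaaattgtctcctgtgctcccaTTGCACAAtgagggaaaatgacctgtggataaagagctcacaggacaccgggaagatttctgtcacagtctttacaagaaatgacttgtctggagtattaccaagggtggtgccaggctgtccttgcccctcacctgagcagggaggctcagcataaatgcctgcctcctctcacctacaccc
Saa3: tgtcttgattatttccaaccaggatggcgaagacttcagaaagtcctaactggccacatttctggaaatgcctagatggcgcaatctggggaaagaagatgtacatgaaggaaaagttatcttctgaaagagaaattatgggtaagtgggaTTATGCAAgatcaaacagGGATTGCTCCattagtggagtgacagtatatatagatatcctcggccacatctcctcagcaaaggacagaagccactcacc
Chit1: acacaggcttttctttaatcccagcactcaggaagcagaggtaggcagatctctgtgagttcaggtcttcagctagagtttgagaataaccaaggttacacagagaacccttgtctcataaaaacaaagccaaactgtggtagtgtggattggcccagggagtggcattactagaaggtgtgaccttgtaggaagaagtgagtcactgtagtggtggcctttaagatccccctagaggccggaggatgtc

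The windows of Saa1 and Saa2 held the same base in 238 of 251 alignment columns, which is 94.8%. Saa3 matched Saa1 in 48.5% of columns and Saa2 in 47.8%. Saa1 had the C/EBP-type motif at -182 to -175 from the start and the NF-kB consensus at -91 to -82. Saa2 had the C/EBP-type motif at -183 to -176, and no match to the NF-kB consensus in these bases. Saa3 had both, at -99 to -92 and at -81 to -72. Chit1 had neither. Of 32851 mouse promoter windows of this length, 9.56% held TTGCNNAA and 23.2% held the NF-kB consensus. The STAT-type motif TTCNNNGAA, held by 7.02% of windows, matched none of the 9 member windows that could be read, and Lbp is named only. The iron-binding pair also had matches, with 1 C/EBP-type motif and 2 NF-kB matches upstream of Lcn2 and 1 C/EBP-type motif upstream of Ltf. Chil1 had an NF-kB match at -179 to -170, and S100a9 a C/EBP-type motif at -236 to -229. A match is a string of letters, and binding was not measured.

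Reads assigned to genes numbered 24.0 to 65.1 M per organoid library and 9.94 to 51.4 M per tumor library (M, 10 to the power of 6). Levels are counts per M counts (CPM) on library sizes scaled by the TMM method over all 26 libraries. Malat1, the targeted RNA, averaged 669 ± 232 CPM with ASO1 and 632 ± 219 CPM with ASO2, against 1443 ± 544 CPM with scASO, in tumors (SD, n = 3, 4 and 3). Single tumors had 401 to 824 CPM with ASO1 and 381 to 913 CPM with ASO2, against 847 to 1913 CPM with scASO. The ASO2 and scASO tumors thus overlapped in Malat1. In organoids the Malat1 level of 2 libraries did not match the label. That labelled ASO2 replicate 1 had 1485 CPM of Malat1, against 95.6 to 307 CPM in the other ASO2 libraries, and that labelled scASO replicate 2 had 118.7 CPM, against 781 to 1191 CPM in the other scASO libraries. Organoid results were therefore computed with and without both. The luminal epithelial genes Krt8 and Epcam were present in every library, with Krt8 at 895 to 2192 CPM in organoids and 560 to 1100 CPM in tumors. Organoid libraries with the same replicate number, 1 to 4, deviated together, so the number was also used as a block.

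Saa1 and Saa2 were both lowest in the ASO1 tumors. Saa1 had 82.0, 48.2 and 62.4 CPM in the ASO1 tumors and 152, 130, 241 and 347 CPM in the ASO2 tumors, against 320, 199 and 282 CPM in the scASO tumors. All 3 ASO1 tumors lay below every other tumor, while the ASO2 tumors spread across the range of the scASO tumors. Saa2, whose product is the other major acute-phase form, had 48.4, 23.2 and 27.1 CPM in the ASO1 tumors and 77.8, 88.2, 173 and 205 CPM in the ASO2 tumors, against 177, 123 and 152 CPM in the scASO tumors. It had the same 3 tumors at the bottom. The means with ASO1 were 24.1% of the scASO mean for Saa1 and 21.9% for Saa2. In bulk tissue, fewer cells of a type and less RNA per cell cannot be told apart.

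Saa3, the form known as the extrahepatic one, was low in all tumors and again lowest with ASO1. It had 2.85, 3.00 and 1.77 CPM with ASO1 and 11.2, 7.70, 8.27 and 9.74 CPM with ASO2, against 9.06, 3.89 and 4.37 CPM with scASO, from at least 61 reads per tumor. The ASO1 tumors lay below all others, and the ASO2 and scASO tumors overlapped. Saa4, the constitutive relative, did not exceed 0.0964 CPM in any library.

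On the log2 scale ASO1 tumors differed from scASO tumors by -2.04 ± 0.37 for Saa1 (estimate ± SE). The Saa2 difference was -2.18 ± 0.40 and did not pass the edgeR quasi-likelihood test (Benjamini-Hochberg adjusted p = 0.407). For Saa2 the adjusted p ranged from 0.000275882, with DESeq2, to 0.875 over the alternatives, and the estimate from -2.56 to -1.99. Saa3 differed by -1.17 ± 0.39 (edgeR adjusted p = 0.535), which shrank to -0.68 in the smallest estimate with 1 library left out. The edgeR test called 1 of 17354 genes in this comparison, or 0.00576%, and no member, with 1466 genes at an unadjusted p under 0.05. DESeq2 called 111 genes, Saa2 among them. Of the 10 members, Saa1, Saa2, Saa3 and Chit1 had every ASO1 tumor below every scASO tumor, a count of 4 of which 2 were chosen for their response, beside 9.39% of all genes lower in this way and 7.07% higher. The members' estimates were lower with ASO1 for 9 of 10, with a median of -0.96, beside 0.05 over all genes. Both values include Saa1 and Chit1, chosen for their response, so this contrast is in part a result of the choice.

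ASO2 tumors gave another picture of the same genes. Their differences from scASO were -0.29 ± 0.33 for Saa1, -0.14 ± 0.36 for Saa2 and 0.68 ± 0.36 for Saa3 on the log2 scale, and the edgeR adjusted p was 0.956 for Saa2 and 0.886 for Saa3. No member had ASO2 and scASO tumors apart, beside 3.67% of all genes lower and 3.49% higher. The members' median was -0.19, beside 0.04 over all genes, and 6 of 10 estimates were lower, with the chosen Saa1 and Chit1 included. edgeR called no gene, with 892 at an unadjusted p under 0.05, and DESeq2 called 45, none of them a member.

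The comparison of the 2 Malat1 oligonucleotides with each other was added after the values were seen, and it shares tumors with both comparisons above. ASO1 tumors lay below every ASO2 tumor for Saa1, Saa2, Saa3, Ltf and Chit1, which is 5 of 10 members, 2 of them chosen for their response, beside 3.3% of all genes, and no member lay above, beside 2.75%. The log2 differences were -1.75 ± 0.35 for Saa1, -2.03 ± 0.39 for Saa2 and -1.86 ± 0.38 for Saa3. The edgeR adjusted p was 0.423 for both Saa2 and Saa3, edgeR called no gene, and 1743 genes had an unadjusted p under 0.05. DESeq2 called 150 genes, with Saa2 at an adjusted p of 0.000199144 and Saa3 at 0.000266747. Over the alternatives the highest adjusted p was 0.754 for Saa2 and 0.797 for Saa3. Malat1 itself had means of 669 and 632 CPM in the ASO1 and ASO2 tumors.

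**Figure D1:**
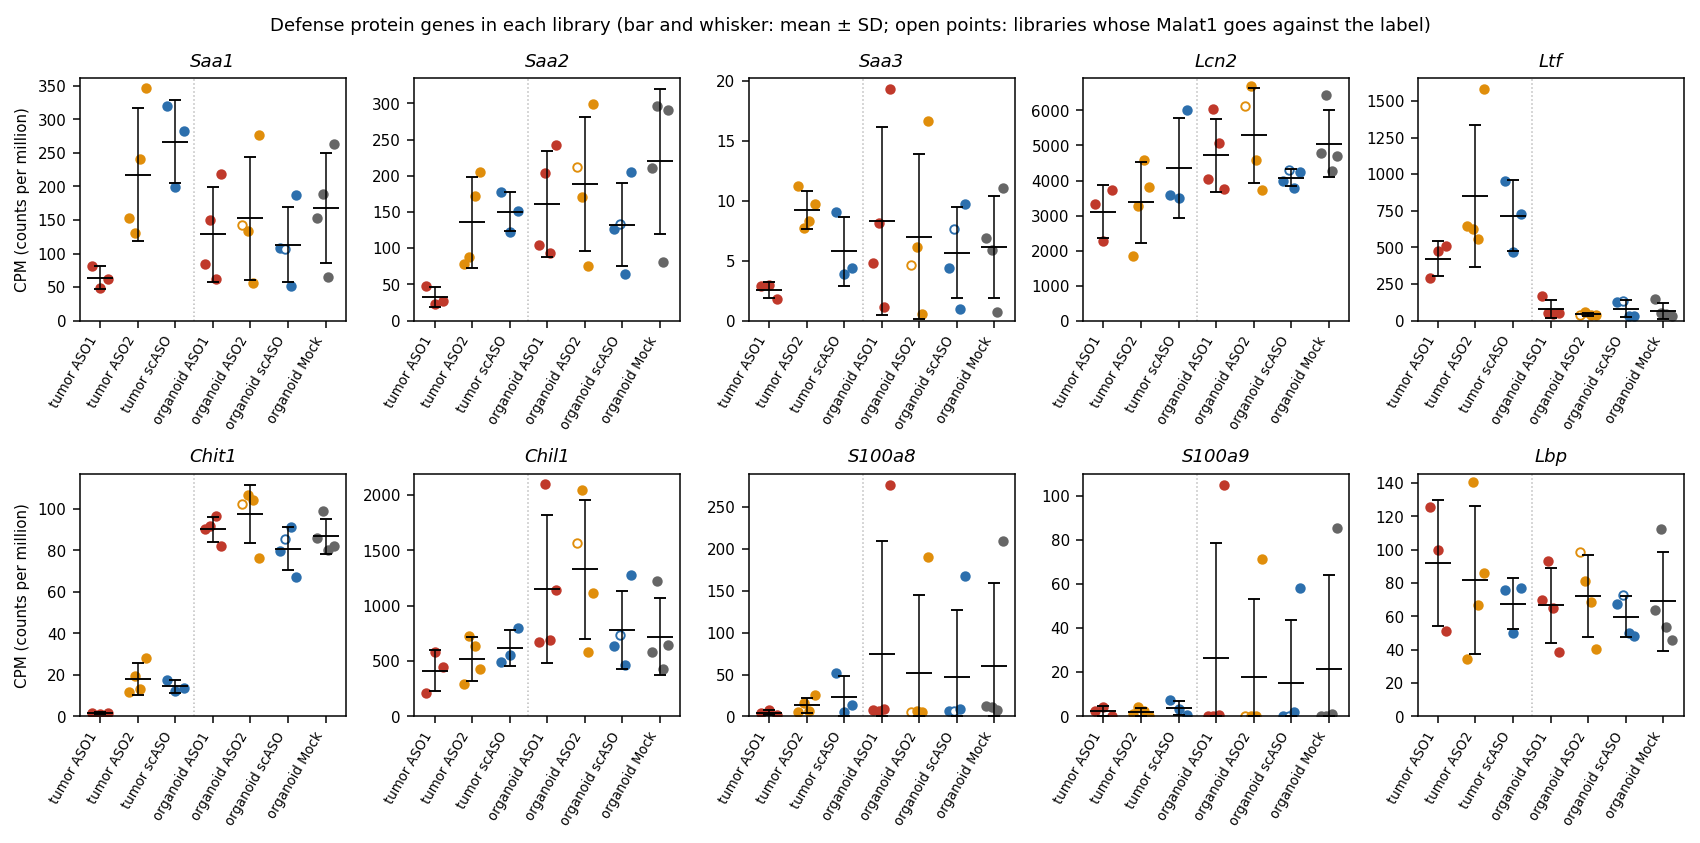
CPM of each of the 10 genes in every library, 1 panel per gene, by the 7 groups; points are libraries, bars the group mean with its SD, and open points the 2 organoid libraries whose Malat1 went against the label. The ASO1 tumors lie below the other tumors for Saa1, Saa2, Saa3 and Chit1, and single organoid libraries of each group stand far above the rest for S100a8 and S100a9.

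Other markers moved with the ASO1 tumors, and their part in the Saa values was not tested. The summed level of 9 alveolar milk protein genes was 1588 to 8138 CPM with ASO1, against 8948 to 10301 CPM with scASO, so these groups did not overlap either. The ASO2 tumors had 5173 to 10828 CPM. Gene by gene, the estimates for ASO1 against scASO were higher for 4 of these 9 genes and lower for 5, and none passed the edgeR test. Summed endothelium markers were 95.0 to 181 CPM with ASO1 and 34.7 to 91.3 CPM with ASO2, against 62.5 to 77.3 CPM with scASO, so that the ASO1 tumors lay above all others. Summed adipocyte markers were 45.4 to 97.4 CPM with ASO1 and 50.8 to 1591 CPM with ASO2, against 33.7 to 44.5 CPM with scASO. Among the milk protein genes Lalba, which encodes a subunit of lactose synthase, differed by -3.22 ± 0.53 between ASO1 and scASO tumors (edgeR adjusted p = 0.235). Summed hepatocyte markers were 14.9 to 86.0 CPM with ASO1, 2.62 to 107 CPM with ASO2 and 15.8 to 24.8 CPM with scASO. The defining liver gene Alb did not exceed 0.385 CPM in any library, and 8 of the 10 hepatocyte genes were under 1 CPM in all. Summed macrophage markers overlapped between the groups, at 384 to 1535 CPM with ASO1, 752 to 1186 CPM with ASO2 and 624 to 943 CPM with scASO.

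In organoids Saa1 and Saa2 differed more between replicate numbers than between oligonucleotides. Saa1 had 84.2, 150, 62.2 and 219 CPM in the ASO1 libraries numbered 1 to 4 and 143, 134, 55.8 and 277 CPM in the ASO2 libraries. It had 109, 107, 51.5 and 187 CPM in the scASO libraries and 152, 189, 65.8 and 263 CPM in the Mock libraries. Number 3 was the lowest and number 4 the highest in every group. Saa2 averaged 161 ± 73.7 CPM with ASO1 and 189 ± 92.4 CPM with ASO2, against 133 ± 57.7 CPM with scASO and 220 ± 101 CPM with Mock (SD, n = 4 each). By number, Saa2 averaged 163, 201, 78.8 and 259 CPM for numbers 1 to 4, and number 3 was again the lowest. The groups overlapped throughout for both genes.

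With both ASOs against scASO, the organoid log2 difference was 0.30 ± 0.47 for Saa1, 0.39 ± 0.43 for Saa2 and 0.43 ± 0.86 for Saa3. Each of these differences was smaller than its SE. Averaged within a number, the ASO libraries differed from scASO by 0.23, 0.48, 0.38 and 0.39 for Saa2 and by 0.02, 0.41, 0.19 and 0.40 for Saa1, in numbers 1 to 4. Without the 2 libraries whose Malat1 did not match the label, the number 1 difference was -0.28 for Saa2 and -0.37 for Saa1, and number 2 had no scASO library. The edgeR adjusted p for Saa2 was 1.00, and 0.248 with the replicate block, where the estimate was 0.39 ± 0.16. Without the 2 libraries that went against their labels the Saa2 estimate was 0.35, and 0.20 ± 0.16 with the block. The scASO libraries were below Mock for both genes in all 4 numbers, of which number 2 rests on the library labelled scASO replicate 2. Their log2 difference from Mock was -0.73 ± 0.49 for Saa2 (edgeR adjusted p = 1.00, and 0.115 with the block) and -0.57 ± 0.54 for Saa1.

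The ratio of Saa1 to Saa2 separated the systems without exception, a pattern noticed in these data and not tested. Saa2 was above Saa1 in 16 of 16 organoid libraries, and Saa1 above Saa2 in 10 of 10 tumors. The Saa1 to Saa2 ratio of CPM was 0.638 to 0.927 in organoids, with a median of 0.797, against 1.4 to 2.3 in tumors, with a median of 1.75. In tumors the ratio averaged 2.02 ± 0.308 with ASO1 and 1.63 ± 0.252 with ASO2, against 1.76 ± 0.126 with scASO (SD, n = 3, 4 and 3). The principal transcripts have similar lengths, 609 bases for Saa1 and 606 for Saa2. Of all stretches of 50 bases in these transcripts, 14.8% for Saa1 and 13.3% for Saa2 occurred in another gene's transcript, mostly in each other's, and reads that aligned to several places were not counted, so the level of both is somewhat uncertain. No stretch of 100 bases was shared.

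Saa3 varied more between organoid cultures than Saa1 did, with a highest value 34.6 times the lowest. It averaged 5.18 CPM in libraries numbered 1, 6.92 CPM in number 2, 0.860 CPM in number 3 and 14.2 CPM in number 4. The 4 libraries numbered 4 lay above the other 12, by 2.11 on the log2 scale. Of all genes, 12.3% stood higher and 12.6% lower in number 4 without overlap.

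Chit1, the active chitinase, had the largest relative difference of the 10 genes in ASO1 tumors, and its response was a reason for choosing it. It had 1.76, 0.930 and 1.77 CPM with ASO1 and 11.8, 19.3, 12.99 and 28.3 CPM with ASO2, against 17.8, 12.0 and 13.5 CPM with scASO. The lowest of the ASO2 and scASO tumors was several times the highest ASO1 tumor. The ASO1 values rest on 47 to 61 reads per tumor. Their mean was 10.3% of the scASO mean, a log2 difference of -3.26 ± 0.41, which stayed between -3.45 and -3.02 with any 1 tumor of the compared groups left out. Between ASO2 and scASO tumors the difference was 0.33 ± 0.35, and between ASO1 and ASO2 tumors -3.59 ± 0.41.

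Chit1 was the least variable member in organoids. It averaged 90.2 ± 5.93 CPM with ASO1 and 97.4 ± 14.1 CPM with ASO2, against 80.9 ± 10.3 CPM with scASO and 86.9 ± 8.44 CPM with Mock (SD, n = 4 each). The highest of the 16 organoid values was 1.59 times the lowest, while in tumors it was 30.4 times the lowest. Both ASOs together were above scASO by 0.21 ± 0.11 on the log2 scale, and by 0.28, 0.20, 0.14 and 0.24 within numbers 1 to 4. Without the 2 doubted libraries the Chit1 difference was 0.18 in number 1 and could not be had in number 2. The group ranges overlapped. With scASO, organoids had 5.61 times the tumor mean, a log2 difference of 2.49 ± 0.26 with a range of 2.21 to 2.67 over the alternatives.

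Chil1, which lies downstream of Chit1 on chromosome 1 and encodes the relative without chitinase activity, was far more abundant and had another pattern. It had 215, 584 and 443 CPM in ASO1 tumors and 291, 726, 634 and 426 CPM in ASO2 tumors, against 495, 552 and 800 CPM in scASO tumors, and the groups overlapped. The log2 difference from scASO was -0.55 ± 0.40 for ASO1 (edgeR adjusted p = 0.735) and -0.24 ± 0.37 for ASO2 (edgeR adjusted p = 0.929).

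In organoids Chil1 had 672, 2101, 689 and 1144 CPM with ASO1 and 1566, 2047, 585 and 1117 CPM with ASO2, in the order of the numbers. It had 641, 737, 468 and 1278 CPM with scASO and 586, 1223, 427 and 647 CPM with Mock. The 3 highest values were in ASO1 number 2, ASO2 number 2 and the library labelled ASO2 replicate 1. Number 2 without the library labelled scASO replicate 2 averaged 1791 ± 492 CPM (n = 3), and number 1 without the library labelled ASO2 replicate 1 averaged 633 ± 43.7 CPM (n = 3). The library labelled ASO2 replicate 1 lay within the range of those number 2 libraries, and the library labelled scASO replicate 2 was nearer to those of number 1.

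Both ASOs differed from Mock in organoids by 0.76 ± 0.41 on the log2 scale for Chil1. It did not pass the edgeR test (adjusted p = 1.00), nor with the replicate block (0.75 ± 0.24, edgeR adjusted p = 0.102). With the block and without the 2 libraries it was 0.57 ± 0.12 and passed (edgeR adjusted p = 0.0124172), in a fit that called 1709 genes. With the block and all libraries, where Chil1 did not pass, 738 genes passed, or 4.31% of all. The fit where Chil1 passed called more genes than that, so calls were common there. That adjusted p was the lowest of all alternatives for Chil1, and the highest was 1.00. Within numbers 1 to 4 the ASO libraries averaged above Mock by 0.81, 0.76, 0.57 and 0.80. The number 1 value was 0.20 without the library labelled ASO2 replicate 1. Against scASO the Chil1 difference was 0.64 ± 0.41 (edgeR adjusted p = 1.00), which became 0.12 ± 0.14 with the block and without the 2 libraries.

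**Figure D2:**
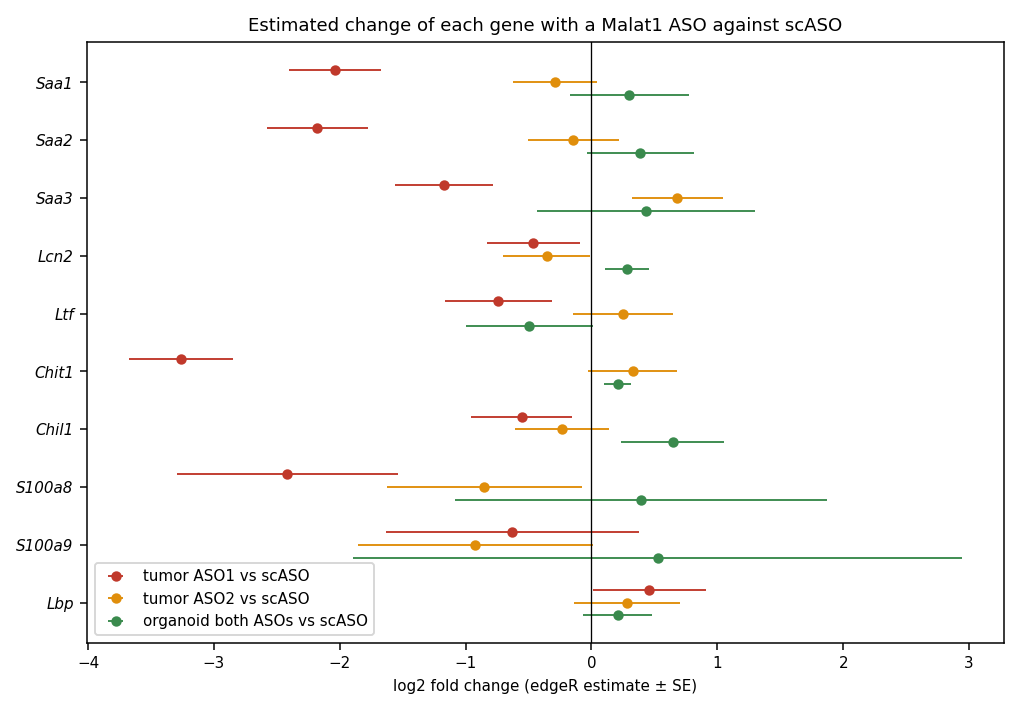
Log2 fold change with its SE for the 10 genes, for ASO1 against scASO in tumors, ASO2 against scASO in tumors and both ASOs against scASO in organoids, from edgeR fits across all genes. In tumors with ASO1 the estimates lie below 0 for 9 of 10 genes, down to -3.26 for Chit1, while the organoid estimates lie above 0 for all but Ltf. Saa1 and Chit1 were chosen for their response.

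Lcn2, which encodes lipocalin 2, was the most abundant member per kilobase of transcript in both systems. It had 3327, 2267 and 3733 CPM with ASO1 and 1848, 3259, 4593 and 3815 CPM with ASO2, against 3583, 3489 and 6003 CPM with scASO, in tumors. The groups overlapped, with log2 differences from scASO of -0.46 ± 0.37 for ASO1 and -0.36 ± 0.34 for ASO2 (edgeR adjusted p = 0.759 and 0.893). In organoids Lcn2 averaged 4721 ± 1048 CPM with ASO1 and 5290 ± 1363 CPM with ASO2, against 4080 ± 242 CPM with scASO and 5048 ± 957 CPM with Mock (SD, n = 4 each). The organoid difference of both ASOs from scASO was 0.28 ± 0.18 on the log2 scale and did not pass the edgeR test (adjusted p = 1.00).

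Ltf, which encodes lactoferrin, was the member with the strongest tested difference between systems. It had 290, 476 and 507 CPM with ASO1 and 648, 623, 558 and 1580 CPM with ASO2, against 956, 469 and 725 CPM with scASO, in tumors. ASO1 tumors overlapped scASO tumors and lay below all ASO2 tumors. The log2 differences were -0.74 ± 0.43 for ASO1 against scASO (edgeR adjusted p = 0.654), 0.25 ± 0.40 for ASO2 against scASO (edgeR adjusted p = 0.928) and -0.99 ± 0.41 for ASO1 against ASO2 (edgeR adjusted p = 0.493).

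Organoids held far less Ltf. It had 171, 51.7, 42.5 and 53.9 CPM with ASO1 and 38.9, 58.8, 35.9 and 35.9 CPM with ASO2, in the order of the numbers. It had 126, 137, 34.3 and 31.5 CPM with scASO and 150, 50.4, 43.0 and 28.6 CPM with Mock. Libraries numbered 1 were high, apart from the library labelled ASO2 replicate 1, and the library labelled scASO replicate 2 was high with them. With scASO, organoids had 11.5% of the tumor mean, a log2 difference of -3.12 ± 0.61 (edgeR adjusted p = 0.00104). It passed under all alternatives, from -3.49 to -2.85 with a highest adjusted p of 0.00683. The fit called 23.5% of 18695 genes between these groups, 2256 lower and 2136 higher in organoids, and Ltf was the only one of the 8 tested members among them. With library totals alone the split was 4016 lower and 1230 higher, around a median over all genes of -0.28. Saa2 differed by -0.18 ± 0.48 (edgeR adjusted p = 0.812), and Saa1 by -1.24 ± 0.51.

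Within organoids the Ltf difference of both ASOs from scASO depended on the libraries kept. It was -0.49 ± 0.50 with all libraries, -0.12 without the 2 that went against their labels, and 0.33 ± 0.13 with the block in addition (edgeR adjusted p between 0.506 and 1.00 over the alternatives).

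S100a8 and S100a9, the calprotectin subunits, were low in tumors and in most organoids. S100a8 had 3.53, 7.51 and 2.03 CPM with ASO1 and 5.17, 15.8, 6.41 and 25.2 CPM with ASO2, against 52.1, 5.01 and 13.1 CPM with scASO. A single scASO tumor was far above the others, and the groups overlapped. The log2 difference from scASO was -2.42 ± 0.88 for ASO1 (edgeR adjusted p = 0.535) and -0.85 ± 0.77 for ASO2 (edgeR adjusted p = 0.890). The ASO1 estimate was -1.02 at its smallest with 1 tumor left out. S100a9 was between 0.319 and 7.31 CPM in the 10 tumors, with differences of -0.63 ± 1.01 for ASO1 (edgeR adjusted p = 0.883) and -0.92 ± 0.94 for ASO2 (edgeR adjusted p = 0.893).

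Both subunits were high in the organoid libraries numbered 4, whatever the oligonucleotide. S100a8 had 276 CPM with ASO1, 191 CPM with ASO2, 167 CPM with scASO and 209 CPM with Mock in number 4, against 5.38 to 12.8 CPM in the other 12 libraries. S100a9 had 105, 71.1, 58.0 and 85.5 CPM in the same 4 libraries, against 0 to 2.13 CPM in the other 12, of which 6 held no read. It passed the filter on low counts in organoids because of the libraries numbered 4. The oligonucleotide differences were small beside this spread, at 0.39 ± 1.48 for S100a8 and 0.53 ± 2.42 for S100a9 on the log2 scale for both ASOs against scASO.

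Several marker lists moved with number 4, and their part in the calprotectin values was not tested. The summed level of 12 squamous epithelium genes was 4454 to 6963 CPM in number 4, against 174.5 to 708 CPM in the other organoid libraries and 18.0 to 97.9 CPM in tumors. Krt1, a keratin of differentiating epidermis, had 325 to 517 CPM in number 4 and at most 6.09 CPM elsewhere among organoids. The summed neutrophil markers were 230 to 344 CPM in number 4, against 4.41 to 45.7 CPM in the other organoids, carried by BC100530, Stfa3 and Mmp9. The defining neutrophil genes Ly6g and Retnlg had no read in any of the 16 organoid libraries, and 11 of the 20 neutrophil genes were under 1 CPM in all of them. Ly6g and Retnlg also failed the filter in the joint fit with tumors. In tumors 9 of the 20 genes were under 1 CPM in all libraries. The neutrophil receptor gene Csf3r had 0.0282 to 0.406 CPM in organoids, against 2.63 to 7.69 CPM in tumors. The genes most like S100a9 across the 16 organoid libraries were Krt1, Dsc1 and Cnfn, at a root mean square difference of 0.77, 0.93 and 0.97 in centred log2 CPM, where S100a9 itself had an SD of 4.30. For S100a8 the closest genes were Fam83c, Dsc3 and Fbp1. Summed adipocyte markers were 129 to 153 CPM in number 4, against 29.9 to 47.6 CPM in the other organoids. Milk protein markers were lower, at 972 to 1489 CPM against 2047 to 4812 CPM, and hepatocyte markers too, at 0.953 to 1.72 CPM against 4.53 to 20.1 CPM. The 14 further S100 genes summed to 1802 to 2217 CPM in number 4, against 965 to 1651 CPM.

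**Figure D3:**
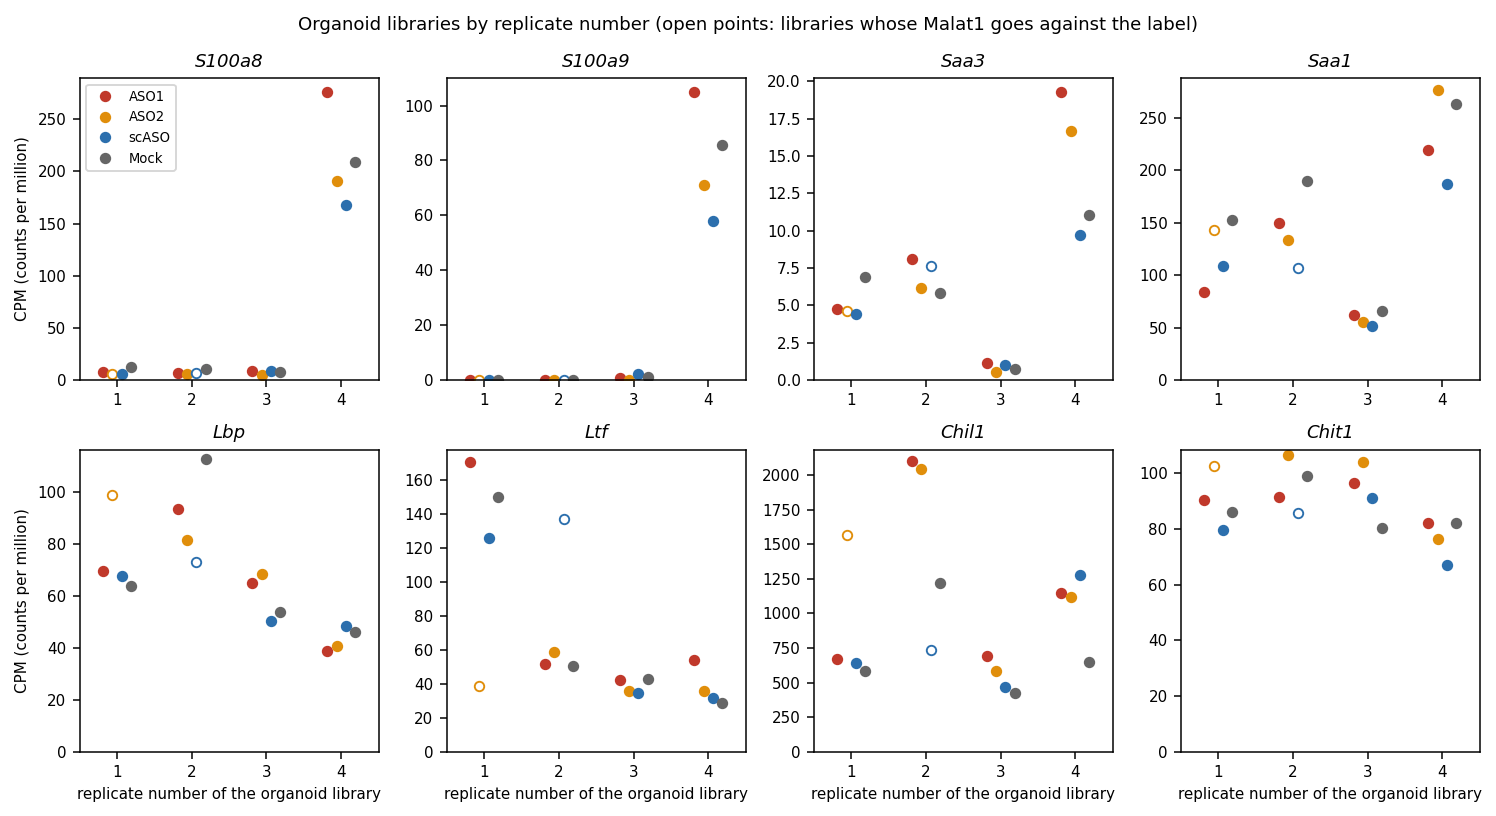
CPM of 8 of the 10 genes in the 16 organoid libraries by replicate number 1 to 4, with colors for ASO1, ASO2, scASO and Mock. S100a8 and S100a9 are high in number 4 in all 4 groups, Saa1 and Saa3 are lowest in number 3, and Chit1 is nearly level.

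**Figure D4:**
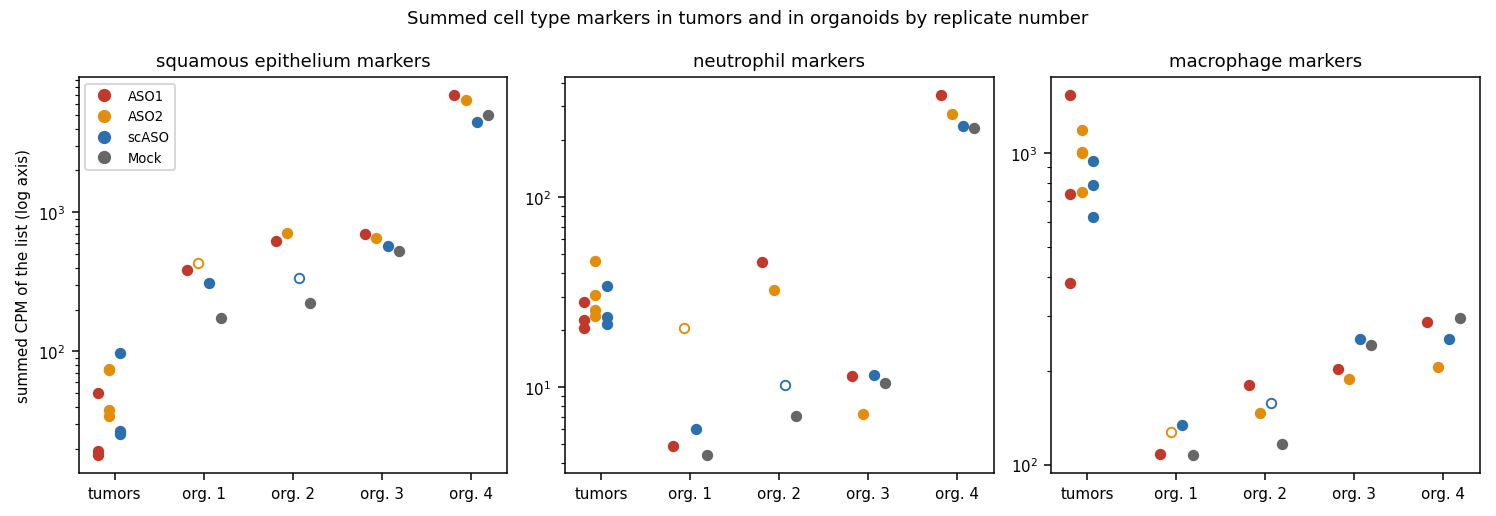
Summed CPM of the squamous, neutrophil and macrophage marker lists, on a log axis, in tumors and in organoid libraries of numbers 1 to 4. Squamous markers reach 4454 to 6963 CPM in number 4, and macrophage markers are higher in every tumor than in any organoid library.

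Lbp, the lipopolysaccharide carrier, was at similar levels in both systems. It had 125, 99.8 and 51.2 CPM with ASO1 and 34.2, 140, 66.8 and 86.0 CPM with ASO2, against 75.8, 50.1 and 77.3 CPM with scASO, in tumors. It was the only member with an estimate above 0 in ASO1 tumors, at 0.46 ± 0.45 on the log2 scale (edgeR adjusted p = 0.802), and the groups overlapped. For ASO2 the difference was 0.28 ± 0.42 (edgeR adjusted p = 0.925). In organoids Lbp averaged 43.4 CPM in number 4, below the other 12 libraries without overlap, against 74.8, 90.0 and 59.4 CPM in numbers 1 to 3. Both ASOs differed from scASO in organoids by 0.21 ± 0.27 (edgeR adjusted p = 1.00).

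Across all 10 genes the organoid response was small. With both ASOs against scASO, 9 of 10 estimates were above 0 with a median of 0.34, beside 0.01 over all genes. Saa1 and Chit1, chosen for their response, are included there. Every member overlapped between the groups, beside 0.0292% of genes lower and 0.0467% higher without overlap. edgeR called no gene, with 182 at an unadjusted p under 0.05, and DESeq2 called none. With the block edgeR again called none, with 3157 at an unadjusted p under 0.05, and with the block but without the 2 libraries it called 4 genes, none a member. For both ASOs against Mock, 6 of 10 estimates were below 0, with a median of -0.01, beside -0.02 over all genes. For scASO against Mock, 8 of 10 were below 0, with a median of -0.26, beside -0.01. Saa1 and Chit1 are again included.

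The tumor response of both ASOs minus the organoid response was computed in 1 fit over all 26 libraries. It was -1.48 ± 0.62 for Saa1 and -1.70 ± 0.29 for Chit1, the pair chosen for it. The tumor side averages 2 unlike groups. ASO1 and ASO2 tumors had 10.3% and 126% of the scASO mean for Chit1. They had 24.1% and 81.6% for Saa1, and 21.9% and 90.3% for Saa2. Saa2, which shares sequence with Saa1 and is thus not separate from that choice, differed by -1.57 ± 0.59 (edgeR adjusted p = 1.00). With the replicate block it was -1.71 ± 0.32 and passed (edgeR adjusted p = 0.0312, the lowest of the alternatives, the highest being 1.00), in a fit that called 57 genes or 0.305%. That block also grouped the tumors by number, although tumors of a number did not deviate together (median correlation -0.0838), so this pass is doubtful. Lcn2 differed by -0.72 ± 0.34 (edgeR adjusted p = 1.00). Without the block edgeR called no gene, with 831 at an unadjusted p under 0.05, and DESeq2 called 2.

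Genes of related roles were summarised from lists, again without calls in tumors. In ASO1 against scASO tumors, edgeR passed 0 of 20 measured acute-phase and complement genes, 0 of 32 genes of the NF-kB, IL-6 and IL-17 pathways and 0 of 18 receptor genes for these proteins. It also passed 0 of 18 other secreted defense genes, 0 of 13 S100 genes and 0 of 4 chitinase genes. The summed NF-kB, IL-6 and IL-17 level was 1038 to 1522 CPM with ASO1 and 1331 to 1599 CPM with ASO2, against 1620 to 1759 CPM with scASO. That of the other secreted defense genes was 2560 to 2970 CPM with ASO1 and 2977 to 5244 CPM with ASO2, against 3017 to 4731 CPM with scASO. Medians of the log2 differences, in the order of the lists above, were 0.09, -0.14, -0.05, 0.18, -0.31 and -0.07, beside 0.05 over all genes. Lrg1, a secreted acute-phase glycoprotein gene, was at -1.72 ± 0.49 (edgeR adjusted p = 0.535), while Serpina3n, an acute-phase protease inhibitor gene, was at 2.1 ± 0.68 (edgeR adjusted p = 0.535). Stat3, which encodes the transcription factor that carries the IL-6 signal, was at -0.81 ± 0.40 (edgeR adjusted p = 0.611). Lrg1 was also the gene closest to Saa1 across the 10 tumors after Saa2, with a root mean square difference of 0.35 in centred log2 CPM, where Saa1 had an SD of 1.01. The genes closest to Chit1 in tumors were Saa2, Lalba and Saa1, at 0.75, 0.82 and 0.84, where Chit1 had an SD of 1.71.

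In organoids the same lists held 0 calls for both ASOs against scASO. Of the other secreted defense genes 16 of 19 were above 0, with a median of 0.35. Against Mock with the replicate block, where 4.31% of all genes passed, 6 of 31 NF-kB, IL-6 and IL-17 genes were higher and none lower, led by Lif at 0.95 (edgeR adjusted p = 0.00623). Hp, the haptoglobin gene, rose by 1.14 (edgeR adjusted p = 0.0290) among 3 higher and 1 lower acute-phase genes, and S100a6 rose by 0.68 (edgeR adjusted p = 0.00983). None of the 10 members passed there. With the block, scASO alone was above Mock by 0.80 for Lif, 0.81 for Hp and 0.45 for S100a6. Their edgeR adjusted p was 0.0595, 0.213 and 0.159. Both ASOs were above scASO by 0.15, 0.34 and 0.23 with the block, in the same order. Between systems, 15 NF-kB, IL-6 and IL-17 genes of 32 were higher in scASO organoids and 2 lower, where 23.5% of all genes were called in either direction. Lif was higher by 3.30 ± 0.53 (edgeR adjusted p = 0.000185), and Il1b, the interleukin 1 beta gene, was at -2.26 ± 0.81 (edgeR adjusted p = 0.0465), with a summed macrophage level of 107.5 to 296 CPM in organoids, against 384 to 1535 CPM in tumors.

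Per kilobase of principal transcript, the order of mean levels over the 16 organoid libraries was Lcn2 at 5229, Chil1 at 590, Saa2 at 290, Saa1 at 231, S100a8 at 121, Chit1 at 52.6, S100a9 at 39.5, Lbp at 26.5, Ltf at 24.8 and Saa3 at 12.2 CPM per kb. S100a8 and S100a9 held these places through the 4 libraries numbered 4, since over the other 12 they were at 16.1 and 0.711 CPM per kb, below Chit1 at 55.0, Lbp at 29.6 and Ltf at 28.5. Over the 10 tumors the order was Lcn2 at 3925, Chil1 and Saa1 both at 306, Ltf at 249, Saa2 at 181, Lbp at 32.0, S100a8 at 27.9, Saa3 at 11.1, Chit1 at 7.11 and S100a9 at 5.25 CPM per kb. Lcn2 exceeded the next gene in every library of both systems. Neighbours such as Lbp and S100a8 in tumors, or Lbp and Ltf in organoids, had ranges that overlapped.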

How the data were processed

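Raw read counts per gene were deposited by the authors for each of 26 libraries of polyadenylated RNA, with TruSeq chemistry per the labels' protocols. The submitters' processing notes name the build mm9 and the tools STAR, HTSeq, DESeq2, CASAVA and FastQC; their versions and roles, and the strand setting, have no source here. The 5 lines that name no gene were left out of library sizes; relative to assigned reads, reads with several alignments made up 21.2 to 32.7% in organoids and 24.1 to 44.0% in tumors, reads in no feature 8.34 to 14.6% and 11.1 to 24.5%, and ambiguous reads 4.44 to 8.70% and 3.90 to 4.65%. Of 37310 IDs, 32620 matched a GENCODE M21 symbol on GRCm38.

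Groups came from the sample titles. Tumors (17354 genes tested) and organoids (17126) were fitted separately, and jointly (18695) for differences between systems, with edgeR 4.0.16 in R 4.3.3: TMM-scaled library sizes, filterByExpr (minimum count 10, minimum total 15), the quasi-likelihood F-test, and Benjamini-Hochberg adjustment with a threshold of 0.05 over all genes of a comparison. All 10 members passed the filter in each fit. SEs were derived from the log2 fold change and F. Log2 CPM used a prior count of 2. The fit was tested on simulated data drawn without an effect of replicate number, so that test does not cover the pairing of organoid libraries. Alternatives were DESeq2 1.42.0 size factors and test, library totals only, no filter, only the groups compared, the replicate block, each library left out, and both libraries left out whose Malat1 went against the label. Libraries of 1 group differed by more than sampling noise, so none was merged.

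Replicate numbers come from the titles. Organoid libraries with the same number deviated together in 24 of 24 pairs (correlation 0.469 to 0.934, median 0.818), so the numbers pair them; what a number stands for is not labelled. For tumors 2 of 9 pairs exceeded 0.1, and the main fits assumed no pairing. The alternative with the replicate block also grouped tumors by number, in the tumor fits and in the joint fit.

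The members, the lists of related genes and the marker lists were chosen with earlier results of these data known. Named genes outside the members are the 2 per list with the smallest p (in each direction where called), the most abundant, genes needed to read a marker list, and the 3 genes with the smallest root mean square difference of centred log2 CPM from a member. Levels per kilobase used the principal transcript of GENCODE. Promoter windows were read from RefSeq, with entries for 9 of the 10 members, and searched for the motifs on both strands with Python 3.11.15.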

Additional observations from a re-analysis of the deposited data

Results flagged for a closer look

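Single libraries stood far from the 3 others of their group, by a gap of more than 0.829 of the group's range, in 12 of 50 groups of 4 libraries examined. Chance gives about 1 in 20.

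S100a8 stood out in replicate 4 of all 4 organoid groups, at 276 CPM with ASO1, 191 CPM with ASO2, 167 CPM with scASO and 209 CPM with Mock. S100a9 stood out in the same 4 libraries, at 105 CPM with ASO1, 71.1 CPM with ASO2, 58.0 CPM with scASO and 85.5 CPM with Mock. These 8 values are 1 pattern, since the libraries share a number, and the squamous markers given with the report's values are high in the same libraries.

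Ltf stood out 3 times. It was high in tumor ASO2 replicate 4, at 1580 CPM, and in organoid ASO1 replicate 1, at 171 CPM, and organoid ASO2 replicate 2 had 58.8 CPM, above the other ASO2 libraries. Chit1 was low in organoid ASO2 replicate 4, at 76.5 CPM.

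The Saa2 response differed between the systems by a test of the difference itself, at -1.71 for tumor minus organoid with the replicate block, and not without the block. Its tumor side averages ASO1 and ASO2 tumors, which had 21.9% and 90.3% of the scASO mean. The block also grouped the tumors by number, although tumors of a number did not deviate together. Saa2 shares sequence with Saa1, which was chosen for this very difference, so the value is not separate from that choice.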

How the results depend on the processing

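Of the alternative values for single genes, 1084 kept their direction and side of the threshold, 3 means or differences moved by more than their spread, 18 changed sign and 5 newly passed; the cause was not tested for any. The numbers of genes called were 1 for tumor ASO1 against scASO, 4392 for the level difference and 0 for every other comparison. DESeq2 called 19 for both ASOs in tumors, 111 for ASO1, 45 for ASO2, 150 for ASO1 against ASO2, 6 for both ASOs against Mock, 1 for scASO against Mock and 2 for the response difference. Without the filter ASO1 tumors had 3 calls against scASO and 4 against ASO2, with library totals alone 2 against ASO2, and with only the compared groups in the fit 0 against scASO. The replicate block gave 0 for ASO1 tumors against scASO, 738 for both ASOs against Mock, 128 for scASO against Mock and 57 for the response difference. The block without the 2 libraries whose Malat1 did not match the label gave 4 for both ASOs against scASO in organoids, 1 for ASO1 and 3 for ASO2 alone, 1709 for both ASOs against Mock and 308 for scASO against Mock; leaving the 2 out without the block gave 1 for both ASOs against Mock. For the level difference no block could be fitted, as it compares tumors with organoids. Leaving out 1 library at a time gave 0 to 3 calls for tumor ASO1 against scASO, 0 to 1 for tumor ASO2, for ASO1 against ASO2 and for the response difference, and 2632 to 4709 for the level difference, lowest without tumor scASO replicate 3 and 2722 without replicate 2. Values that changed sign were Ltf in ASO2 tumors with the block (-0.19); and, for both ASOs against scASO in organoids, S100a9 with the block (-0.26) and, with the block and without the 2 libraries, S100a9 (-0.036), Ltf (0.33) and Lbp (-0.016). With 1 library left out the sign also changed within these ranges: S100a9 in ASO1 tumors (-1.38 to 0.25); Saa2 (-0.42 to 0.052), Lbp (-0.11 to 0.54), Ltf (-0.23 to 0.53) and S100a8 (-1.36 to 0.55) in ASO2 tumors; Saa3 (-0.028 to 0.85), S100a8 (-1.27 to 3.15) and S100a9 (-3.50 to 5.05, the highest without scASO replicate 4) for both ASOs against scASO in organoids; and Saa2 in the level difference (-0.48 to 0.042). Apart from the values above and those printed with the results, the block changed no call of a member. Depth limits Chit1 and Saa3 in tumors and S100a9 in organoids, which rest on few reads.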

Other observations

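In tumors the genes most like Saa2 after Saa1 were Crabp2, which encodes a retinoic acid carrier, and Xbp1, which encodes a transcription factor of secretory cells, at a root mean square difference of 0.47 and 0.49 in centred log2 CPM over the 10 libraries. For Saa3 the nearest gene was Sbsn, at 0.45, an epithelial secreted protein gene that differed by -1.24 ± 0.45 between ASO1 and scASO tumors (edgeR adjusted p = 0.535). For Ltf the nearest gene in tumors was Tmem268, at 0.21. In organoids the nearest genes were Mir17hg for Saa1 after Saa2, at 0.23, Lama3, a laminin chain gene, for Chil1, at 0.18, and Orm1, an acute-phase plasma protein gene, second for Saa3, at 0.51. Organoid libraries of 1 number deviated together, so these 16 libraries are not independent points.

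Muscle markers, like the adipocyte markers, varied widely among ASO2 tumors, at a summed level of 5.39 to 2700 CPM with ASO2 and 4.88 to 42.5 CPM with scASO. The tumor with 2700 CPM, ASO2 replicate 1, had 648 CPM of Ltf. ASO2 replicate 4, with 1580 CPM of Ltf, had 87.1 CPM of muscle markers. The part of muscle markers in the wide ASO2 range of Ltf was not tested.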
